A study of Mus musculus with 3 samples.

Results

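The interleukin-17 programme was followed through 8 genes, of the features in the files (31053), in single cells of mouse inguinal adipose tissue. The genes were chosen by symbol: the ligands Il17a and Il17f, the genes Il23r, Il1r1, Ccr6 and Blk of cells that make them, and the receptor chains Il17ra and Il17rc. The first 6 were read in gamma-delta, CD4 and other T cells, and the receptor chains also in stromal cells. The 3 libraries each stand for another genotype. The wild type was TERT +/+. In the library called Pdgfra-Cre here the genotype was Pdgfra-Cre; TERT fl/fl, and the third carried Pdgfrb-Cre with TERT fl/fl and is called Pdgfrb-Cre. There, a Cre under the promoter of a platelet-derived growth factor receptor gene acts on the floxed telomerase gene. Both promoters are used by mesenchymal cells and not typically by T cells, so the T cells carry the floxed allele but are not the cells the Cre is aimed at. The labels give neither the age, sex or strain of the animals nor how many were pooled, whether the wild type carried a Cre, or what "PBS" in the wild-type title stands for. All cells were from the stromal and vascular fraction, after removal of dead cells and red blood cells. Genotype and library cannot be told apart here, and every difference between genotypes below is a difference between 3 libraries with no replicate.

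Interleukin-17A and interleukin-17F are secreted by type 17 lymphocytes, among them a subset of gamma-delta T cells that is resident in fat and other barrier and connective tissues. Such cells are driven by interleukin-23 and interleukin-1, whose receptors Il23r and Il1r1 encode. Both cytokines bind a receptor made of IL-17RA and IL-17RC, and in stromal cells the signal passes through Act1 and TRAF6 to NF-kB and C/EBP factors and their chemokine and cytokine targets.

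The ligand genes are neighbours on chromosome 1 of GRCm38, Il17a (ENSMUSG00000025929) at 20730905 to 20734496 on the forward strand and Il17f (ENSMUSG00000041872) at 20777146 to 20790617 on the reverse strand, 42649 bp apart. Il1r1 (ENSMUSG00000026072) lies further along chromosome 1, at 40225080 to 40317257. Chromosome 6 holds Il23r (ENSMUSG00000049093, 67422932 to 67491855) and the receptor chains Il17ra (ENSMUSG00000002897, 120463247 to 120487559) and Il17rc (ENSMUSG00000030281, 113471427 to 113483140). Ccr6 (ENSMUSG00000040899) is on chromosome 17 at 8236043 to 8257141 and Blk (ENSMUSG00000014453) on chromosome 14 at 63372836 to 63417037. All 8 are annotated as protein-coding genes. The promoters shown are those of the ligands and of Il23r, which after Il17f was the gene of the programme nearest to Il17a across cell groups. Each is a RefSeq window on GRCm38.p6 from 250 bases before to 50 bases after an annotated start, printed 5′ to 3′ on the gene's strand. Capitals mark AGGTCA or its reverse complement TGACCT, a half-site of nuclear receptors, and, in Il17a, 1 match of the AP-1 pattern TGANTCA; no capital stretch overlaps another.
Il17a, chr1:20730655-20730954, forward strand: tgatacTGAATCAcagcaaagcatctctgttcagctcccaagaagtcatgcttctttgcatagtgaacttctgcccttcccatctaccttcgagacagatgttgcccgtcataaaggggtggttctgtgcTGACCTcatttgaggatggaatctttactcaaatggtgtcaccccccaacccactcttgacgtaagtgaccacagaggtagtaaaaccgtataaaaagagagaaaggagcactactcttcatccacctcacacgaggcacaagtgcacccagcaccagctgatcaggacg
Il17f, chr1:20784221-20784520, reverse strand: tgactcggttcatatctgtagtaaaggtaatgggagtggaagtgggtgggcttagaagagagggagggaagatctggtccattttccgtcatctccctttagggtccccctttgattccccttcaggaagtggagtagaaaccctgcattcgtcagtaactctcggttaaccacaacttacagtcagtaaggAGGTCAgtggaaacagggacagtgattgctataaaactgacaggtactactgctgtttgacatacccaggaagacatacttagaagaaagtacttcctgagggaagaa
Il23r, chr6:67491806-67492105, reverse strand: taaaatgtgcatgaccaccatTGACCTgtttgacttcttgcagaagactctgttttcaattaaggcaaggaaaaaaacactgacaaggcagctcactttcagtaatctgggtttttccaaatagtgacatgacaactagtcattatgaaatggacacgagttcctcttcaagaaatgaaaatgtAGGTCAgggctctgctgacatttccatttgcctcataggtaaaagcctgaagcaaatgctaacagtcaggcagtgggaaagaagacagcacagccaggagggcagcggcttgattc

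The half-site lay 120 bases before the start of Il17a, on the reverse strand, and 58 bases before that of Il17f. Il23r had 2 of them, 66 and 229 bases before its start. Of 32851 promoter windows of this length, 16.3% held this half-site on either strand and 7.81% held TGANTCA. Of the 6 genes of the programme with a window (Blk and Il17ra had none), Ccr6 also held 1 half-site and 2 matches of TTCNNNGAA, the pattern of STAT factors, which 8.30% of windows held. None of these patterns was in the windows of Il1r1 and Il17rc. A match is a run of letters and no measurement of binding.

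The libraries held 4124, 2310 and 4355 barcodes and 13352288, 14438471 and 30826733 unique molecular identifiers (UMIs, each 1 captured transcript), given first for wild type, then for Pdgfra-Cre and last for Pdgfrb-Cre, as in every list of 3 values. After filtering, 2668, 1409 and 3903 cells remained, with medians of 3322, 7506 and 5690 UMIs. Ptprc, found in leukocytes, was seen in 31.9 to 71.6% of cells, Pecam1 of endothelium in 15.2 to 34.2%, Pdgfra in 4.50 to 40.3% and the adipocyte gene Adipoq in at most 1.21%. Tert gave 14, 7 and 10 UMIs in all kept cells and 3, 4 and 1 in stromal cells, too few to check the genotype labels. Between any pair of libraries 1 to 5 barcodes were shared, and at most 2 of those were kept cells.

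T cells numbered 637, 288 and 1746. Gamma-delta T cells, T cells with a UMI of the delta-chain constant gene Trdc and none of Cd4, Cd8a or Cd8b1, numbered 16, 23 and 93, or 2.51, 7.99 and 5.33% of T cells. Trdc rested on 1 UMI in only 1, 3 and 10 of them, and their Trac level was below that of CD4 cells (adjusted p = 2.0e-07 by edgeR's quasi-likelihood test). Of the beta-chain constant genes, Trbc2 was less reduced (log2 fold change -0.74, adjusted p = 0.021 by the same test) and Trbc1 did not pass. In the 16 wild-type cells, the gamma-chain genes Tcrg-C1, Tcrg-C2 and Tcrg-C4 were seen in 5, 9 and 6, and the delta-chain V gene Trdv4 in 2. CD4 T cells (a Cd4 UMI, no Trdc and no Cd8) numbered 154, 27 and 274, and other T cells 460, 236 and 1361. Other T cells were CD8 cells together with those in which no co-receptor UMI was caught, so CD4 or gamma-delta cells with missed transcripts fall there too. The 7, 2 and 18 cells with both Trdc and a co-receptor entered no subset. The median depth of gamma-delta cells was alike, at 4557, 4716 and 4966 UMIs. The gated cells were not spread alike over the clusters made from expression. Cluster 24, led by gamma-delta genes, held 2, 17 and 61 of the gamma-delta cells, while 5 of the 16 in wild type lay in cluster 8 and 4 in the NK cluster 16. Wild-type CD4 cells lay mostly in clusters 8 (99 cells) and 9 (44), with none in cluster 21. Those of Pdgfrb-Cre lay mostly in clusters 10 (107 cells), 9 (95) and 21 (50), and those of Pdgfra-Cre in clusters 16 and 21 (9 each) and 10 (5). A difference between libraries within a subset is therefore also one between unlike mixtures of cells. An inguinal pad can bring its lymph node, whose part in the T cell numbers was not tested.

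Il17a was read in gamma-delta T cells of all 3 libraries and was by far higher in those of Pdgfrb-Cre. Wild-type gamma-delta cells held 38 UMIs in 2 of 16 cells, 416 CPM (UMIs of the gene scaled to 1e6 UMIs of that cell group; 95% Poisson interval 294 to 570). Pdgfra-Cre gamma-delta cells held 12 UMIs in 2 of 23 cells, 111 CPM (57.3 to 194). Pdgfrb-Cre gamma-delta cells held 870 UMIs in 58 of 93 cells, 1664 CPM (1556 to 1779). All intervals here cover counting error only, and a single cell weighs heavily in the small groups. The Il17a level without the cell with the most UMIs was 37.1, 20.4 and 1541 CPM. Pdgfrb-Cre was thus 15-fold above Pdgfra-Cre (8.55 to 29.2) and 4.01-fold above wild type (2.89 to 5.70). Both folds lean on single cells. The 4.01 rests on 1 wild-type cell with 35 of the 38 UMIs, and 1 Pdgfra-Cre cell held 10 of the 12 UMIs behind the 15. Both wild-type cells with Il17a were the 2 gamma-delta cells of cluster 24, and within that cluster the gamma-delta level was 1759, 119 and 2504 CPM, in 2 of 2, 1 of 17 and 52 of 61 cells.

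Cells with an Il17a UMI made up 12.5% of wild-type gamma-delta cells (Clopper-Pearson interval 1.55 to 38.3), 8.70% of Pdgfra-Cre (1.07 to 28.0) and 62.4% of Pdgfrb-Cre (51.7 to 72.2). With each cell thinned to 1500 UMIs, and 1, 1 and 2 shallower cells left out, the shares were 6.67, 4.55 and 53.8%. The Pdgfrb-Cre interval does not overlap that of the other libraries, with or without thinning. These intervals treat the cells of 1 library as independent and do not measure a spread between animals. The gated groups were also unlike mixtures of clusters. As a measure of free RNA, B cells, which do not make this cytokine, had an Il17a UMI in 7 of 953 cells in Pdgfrb-Cre (0.73%), each a single UMI, in 0 of 613 wild-type cells, which allows up to 0.489%, and in 0 of 25 Pdgfra-Cre cells, which allows up to 12%.

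**Figure D1:**
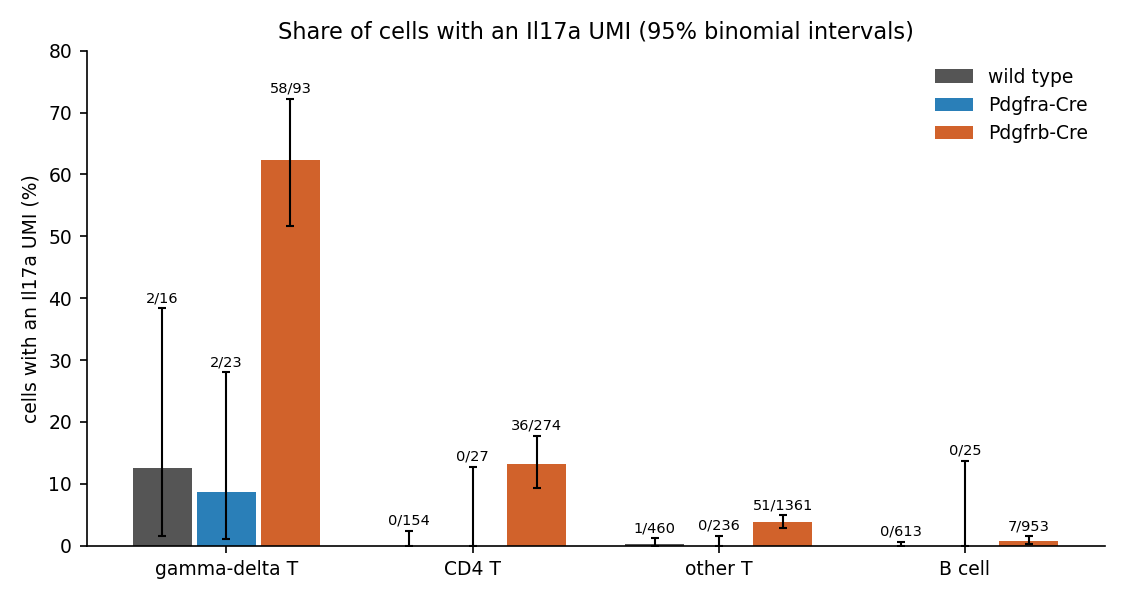
Share of cells with at least 1 Il17a UMI (percent) in gamma-delta, CD4 and other T cells and in B cells of each library, with 95% Clopper-Pearson intervals. The Pdgfrb-Cre gamma-delta share of 62.4% stands above the 12.5 and 8.70% of the other libraries, and only Pdgfrb-Cre has CD4 cells with Il17a.

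The CD4 T cells of Pdgfrb-Cre also held Il17a, 744 UMIs in 36 of 274 cells or 381 CPM (354 to 409). No Il17a UMI was found in 154 wild-type CD4 cells, which allows up to 1.95% of cells with one, or in 27 Pdgfra-Cre CD4 cells, which allows up to 11.1%. The Pdgfrb-Cre level was at least 115-fold higher than the limit of 3 counts in wild-type CD4 cells and at least 16.8-fold higher than that in Pdgfra-Cre. These folds set unlike CD4 cells side by side, since 28 of the 36 cells with Il17a lay in cluster 21, where wild type had no CD4 cell. In cluster 21 the CD4 cells held 554 Il17a UMIs in 28 of 50 cells in Pdgfrb-Cre and none in 9 cells in Pdgfra-Cre. In cluster 9, which held CD4 cells of both wild type and Pdgfrb-Cre, 0 of 44 and 1 of 95 cells had Il17a. In cluster 0 it was 0 of 7 wild-type and 5 of 19 Pdgfrb-Cre CD4 cells, the latter with 153 UMIs. In cluster 8 it was 0 of 99 and 0 of 2, and in cluster 10 it was 0 of 3 and 2 of 107. Other T cells held Il17a at 11.9 CPM in wild type, where all 31 UMIs came from 1 cell, at 0 in Pdgfra-Cre and at 89.4 CPM in Pdgfrb-Cre, in 51 of 1361 cells. A single cell held 326 of those 859 UMIs, and the level without it was 55.6 CPM.

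Within Pdgfrb-Cre the 3 T cell subsets shared Il17a about evenly in absolute terms. Of 2659 Il17a UMIs in its kept cells, 32.7% were in gamma-delta, 28.0% in CD4 and 32.3% in other T cells. Per UMI the order was steeper: gamma-delta cells were 4.37-fold above CD4 cells (3.96 to 4.83) and 18.6-fold above other T cells (16.9 to 20.5). The transcripts were concentrated in few cells, with the 10 highest cells holding 51.8% of Il17a UMIs among gamma-delta, 71.4% among CD4 and 77.3% among other T cells.

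Il17f, the second ligand, was nearly restricted to Pdgfrb-Cre and was spread differently over the subsets. Gamma-delta cells held it at 10.9 CPM (1 UMI) in wild type, 27.7 CPM (3 UMIs in 1 cell) in Pdgfra-Cre and 201 CPM (20 cells, interval 164 to 243) in Pdgfrb-Cre. CD4 cells had none in wild type and Pdgfra-Cre and 151 CPM (296 UMIs in 29 cells) in Pdgfrb-Cre, and other T cells none in those 2 libraries and 26.1 CPM in Pdgfrb-Cre. Of the 658 Il17f UMIs of Pdgfrb-Cre, CD4 cells held 45.0%, other T cells 38.1% and gamma-delta cells 16%. The gamma-delta level was 1.33-fold that of CD4 cells (1.05 to 1.66), against 4.37-fold for Il17a.

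**Figure D2:**
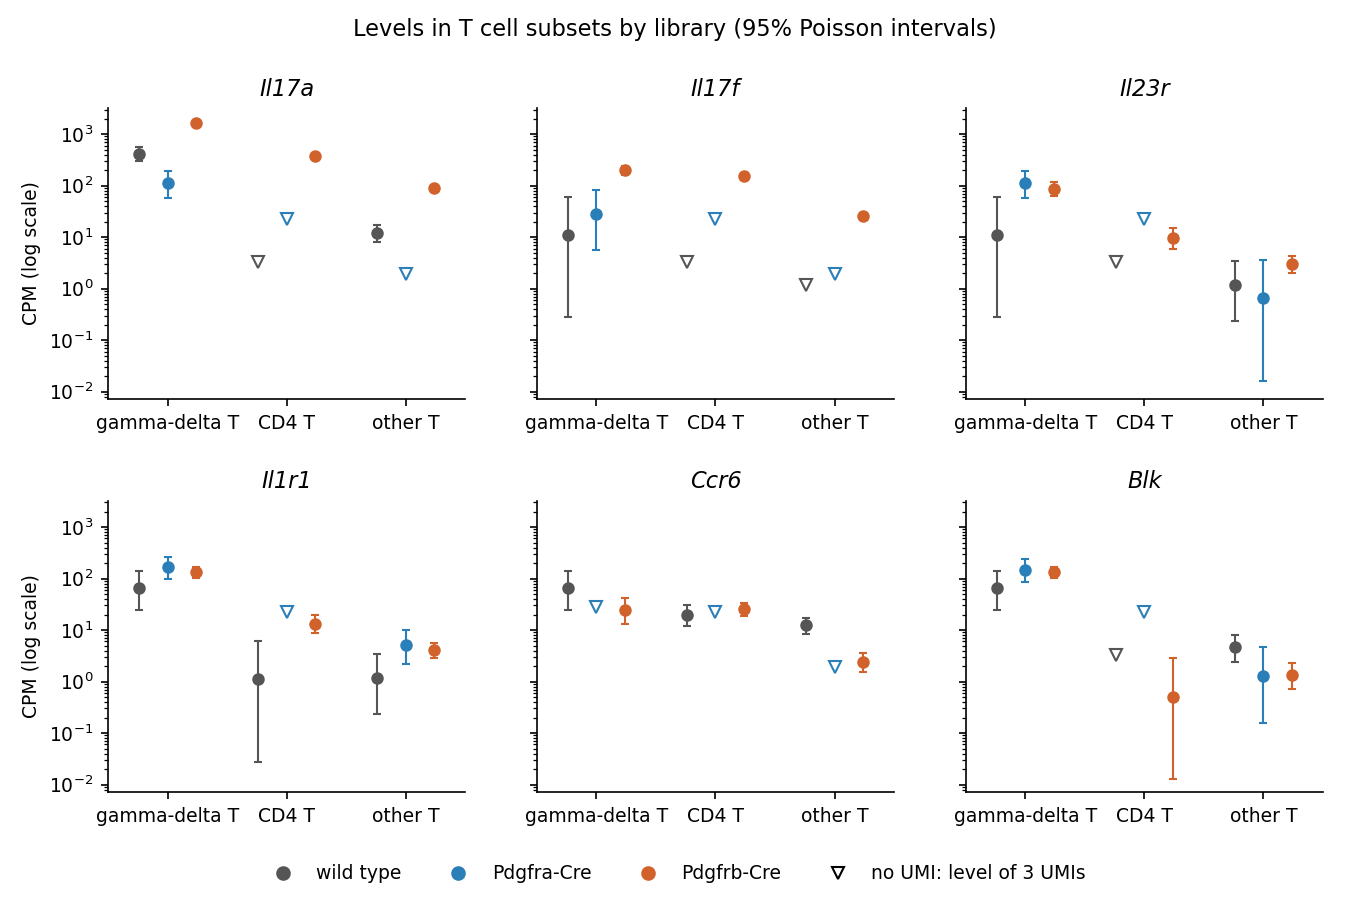
Level (CPM, log axis) of each gene in gamma-delta, CD4 and other T cells, 1 point per library with its 95% Poisson interval; an open triangle marks the level of 3 UMIs where none was found. In each subset the highest Il17a and Il17f point is that of Pdgfrb-Cre, while Il23r, Il1r1 and Blk of gamma-delta cells are alike in Pdgfra-Cre and Pdgfrb-Cre.

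The receptor genes of type 17 cells did not follow the ligands between Pdgfra-Cre and Pdgfrb-Cre. Il23r, the specific chain of the interleukin-23 receptor, was at 10.9 (1 UMI), 111 and 86.1 CPM in gamma-delta cells, so Pdgfra-Cre and Pdgfrb-Cre overlapped (ratio of Pdgfrb-Cre to Pdgfra-Cre 0.776, interval 0.404 to 1.61). Il1r1, the signalling receptor for interleukin-1, was at 65.6, 166 and 132 CPM, again with overlapping intervals in those libraries (0.793, 0.467 to 1.42). Blk, a Src-family kinase found in B cells and in gamma-delta cells that make interleukin-17, was at 65.6, 148 and 132 CPM (0.893, 0.513 to 1.65). These intervals allow anything from about equal levels to a moderate difference either way, but not the 15-fold of Il17a. In wild type each of these genes rested on 1 to 6 UMIs, all of them in the same 2 cells that held Il17a. Against those few UMIs, Pdgfrb-Cre was 7.87-fold higher for Il23r (1.34 to 318) and 2.01-fold for Il1r1 and for Blk (0.879 to 5.67 each).

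A 2-fold difference was common between these libraries. Of the 1655 genes of at least 100 CPM in gamma-delta cells of Pdgfra-Cre or Pdgfrb-Cre, a minimum set after the values were seen, 9.18% were 2-fold or more higher in Pdgfrb-Cre and 20.1% differed that much in either direction. Il17a reached the minimum in both libraries, but Il17f only in Pdgfrb-Cre, where it was high, so the genes of the programme are not counted against these shares.

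Cells of the Pdgfra-Cre library without Il17a still carried some genes of the programme. Of its 21 gamma-delta cells with no Il17a UMI, 11 had Il1r1, 8 had Blk, 5 had Il23r and 16 had Cd163l1, the scavenger receptor SCART1 of gamma-delta cells that make interleukin-17. None of the 21 had an Il17f or a Ccr6 UMI. In Pdgfrb-Cre these genes went with Il17a cell by cell. Among its 58 gamma-delta cells with Il17a, 37 (63.8%) had Il1r1, against 3 of the 35 without (8.57%). For Blk it was 40 (69.0%) against 5 (14.3%), for Il23r 25 against 4, for Il17f 18 against 2 and for Cd163l1 55 (94.8%) against 12 (34.3%). Ifng, the type 1 cytokine, went the other way, with 1 against 6 cells. The median depth was 4970.5 UMIs in cells with Il17a and 4851 in those without. These shares describe cells of 1 sample, and are not replicates.

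**Figure D3:**
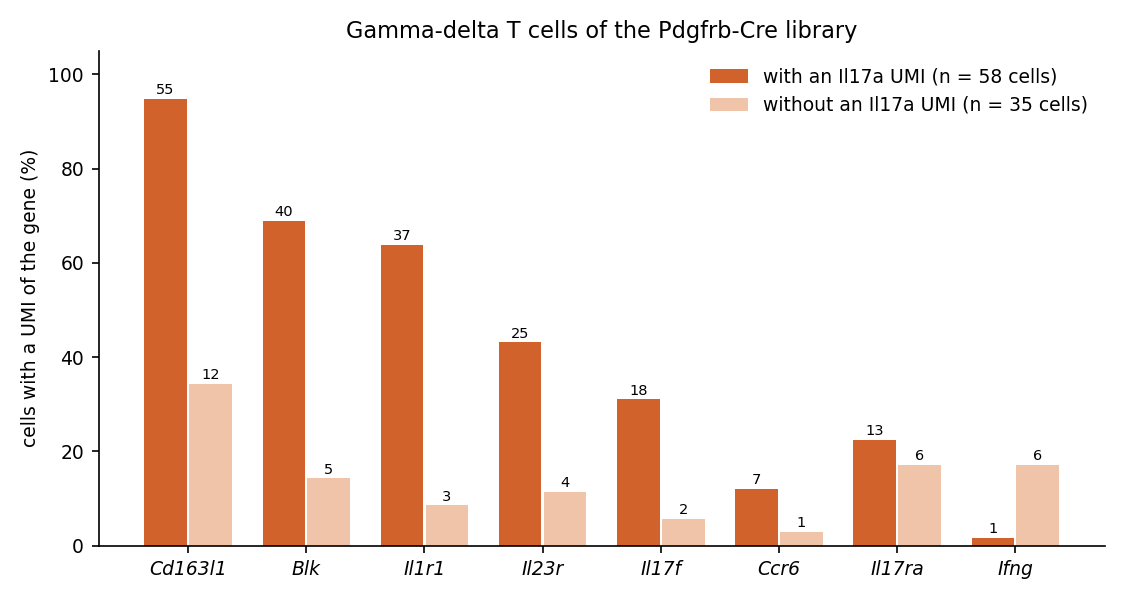
Share of cells (percent) with a UMI of each other gene among the 58 gamma-delta T cells of Pdgfrb-Cre with an Il17a UMI and the 35 without. Il1r1 was seen in 63.8% of cells with Il17a and 8.57% of cells without, and Blk in 69.0 and 14.3%.

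The CD4 cells with Il17a had another mix. Of these 36 cells, 23 (63.9%) had Il17f, 16 (44.4%) Ccr6, 11 Il23r and 6 Il1r1, but 1 had Blk. Trac, the constant gene of the alpha chain, was seen in 34 of them and Foxp3 of regulatory T cells in 1. Il22, another type 17 cytokine, was in 9. Of the 51 other T cells with Il17a, 23 (45.1%) had Il17f, 39 Trac, 17 Cd8b1 and 6 the gamma-chain gene Tcrg-C1.

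Ccr6, the chemokine receptor for CCL20, differed from the rest. It was at 65.6, 0 and 24.9 CPM in gamma-delta cells, at 19.8, 0 and 25.1 CPM in CD4 cells and at 12.3, 0 and 2.39 CPM in other T cells. No Ccr6 UMI was found in any of the 288 Pdgfra-Cre T cells, which allows up to 1.04% of cells with a UMI and sets no limit on cells that express the gene, whereas the B cells of that library had 6 UMIs in 3 of 25 cells. In other T cells the Pdgfra-Cre limit was at least 6.32-fold lower than the wild-type level. In gamma-delta cells it was at least 2.37-fold lower, against 6 wild-type UMIs. In the 27 Pdgfra-Cre CD4 cells the limit of 3 counts, 22.7 CPM, is above the wild-type level, so a difference there was not detectable at this depth.

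Grouping by expression kept the order of the Il17a levels but brought wild type nearer to Pdgfrb-Cre. The clusters were made without the 8 genes. Cluster 24, led by Trdc, Cd163l1, Trdv4 and Tcrg-C1, held 2, 19 and 66 cells and had Il17a at 1759, 114 and 2625 CPM, in 2 of 2, 1 of 19 and 56 of 66 cells. The level in Pdgfrb-Cre was 23.1-fold that in Pdgfra-Cre (12.5 to 48.3), while Il1r1 (ratio 0.869), Blk (0.954) and Il23r (0.834) had intervals that include 1. The 2 wild-type cells of cluster 24 both had Il17a, and Pdgfrb-Cre was 1.49-fold above them (1.08 to 2.12), against 4.01-fold over all gated cells. Pdgfra-Cre was thus the lowest library in both groupings, and in cluster 24 only 2 cells stand for wild type. Cluster 21, led by Cxcr6, 5830411N06Rik and Icos beside Il17a itself, held 18, 25 and 153 cells. Its Il17a was at 255 (31 UMIs in 1 cell), 29.6 and 1228 CPM, its Il17f at 0, 0 and 539 CPM and its Ccr6 at 297, 0 and 60.4 CPM.

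Markers of other cell types were also found in the gamma-delta sums, some above the Il17a level of Pdgfra-Cre. These were NK markers in each library, and red cell and Schwann cell markers (the latter 157 CPM) in Pdgfra-Cre. In Pdgfrb-Cre they were also plasma cell (237 CPM), dendritic (138 CPM) and plasmacytoid dendritic markers (151 CPM), the last also in wild type (131 CPM). The 8 macrophage markers summed to 10.9, 27.7 and 95.7 CPM (1, 2 and 7 of 8 seen), the 7 NK markers to 295, 471 and 253 CPM, the 6 B cell markers to 32.8, 0 and 19.1 CPM and the 6 red cell markers to 10.9, 268 and 1.91 CPM. The 8 T cell markers summed to 4582, 3744 and 4115 CPM. Their part in the differences of Il17a was not tested.

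The T cell subsets were tested within libraries, with edgeR's quasi-likelihood test on 9 sums of UMIs, a term for library and Benjamini-Hochberg adjustment over 7540 genes. The 3 libraries serve as samples of different genotype. The library term takes up differences between them, so the p-values measure how far the subset differences vary from library to library. Against CD4 cells, 4 of the 7 genes that could be tested were higher in gamma-delta cells and none was lower, where 3.08% of all genes tested were higher. These were Il17a (log2 fold change 3.46 ± 0.62, SE, adjusted p = 0.0014), Il23r (3.58 ± 0.60, adjusted p = 7.3e-04), Il1r1 (3.73 ± 0.44, adjusted p = 1.0e-05) and Blk (8.14 ± 0.77, adjusted p = 6.9e-07). The fitted Blk value is no bound, since CD4 cells held 1 UMI in all. Il17f (0.57 ± 0.41, adjusted p = 0.58), Ccr6 (0.53 ± 0.60, adjusted p = 0.76) and Il17ra (-0.35 ± 0.32, adjusted p = 0.69) did not pass. Il17rc was too low to be tested. The median of the 7 was 3.46 on the log2 scale, beside -0.06 over all genes tested.

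Against other T cells, 6 of the same 7 genes were higher and none lower, where 4.44% of all genes were higher. They were Il17a (4.62 ± 0.62, adjusted p = 4.3e-05), Il17f (2.83 ± 0.42, adjusted p = 1.5e-04), Il23r (4.77 ± 0.56, adjusted p = 7.7e-06), Il1r1 (4.81 ± 0.40, adjusted p = 9.8e-08), Ccr6 (2.47 ± 0.66, adjusted p = 0.023) and Blk (5.52 ± 0.48, adjusted p = 1.8e-07). Il17ra did not pass (-0.52 ± 0.30, adjusted p = 0.38). The calls on Il23r, Il1r1 and Blk held in every alternative in which they were tested, but those on the ligands did not. For Il17a, DESeq2 gave an adjusted p of 0.18 against CD4 cells and 0.065 against other T cells, and edgeR without the library term 0.82 and 0.50. The Il17f call against other T cells was lost without the library term (adjusted p = 0.62), and that on Ccr6 was lost in 4 alternatives, among them those without Pdgfra-Cre (adjusted p = 0.057) and without Pdgfrb-Cre (0.49).

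**Figure D4:**
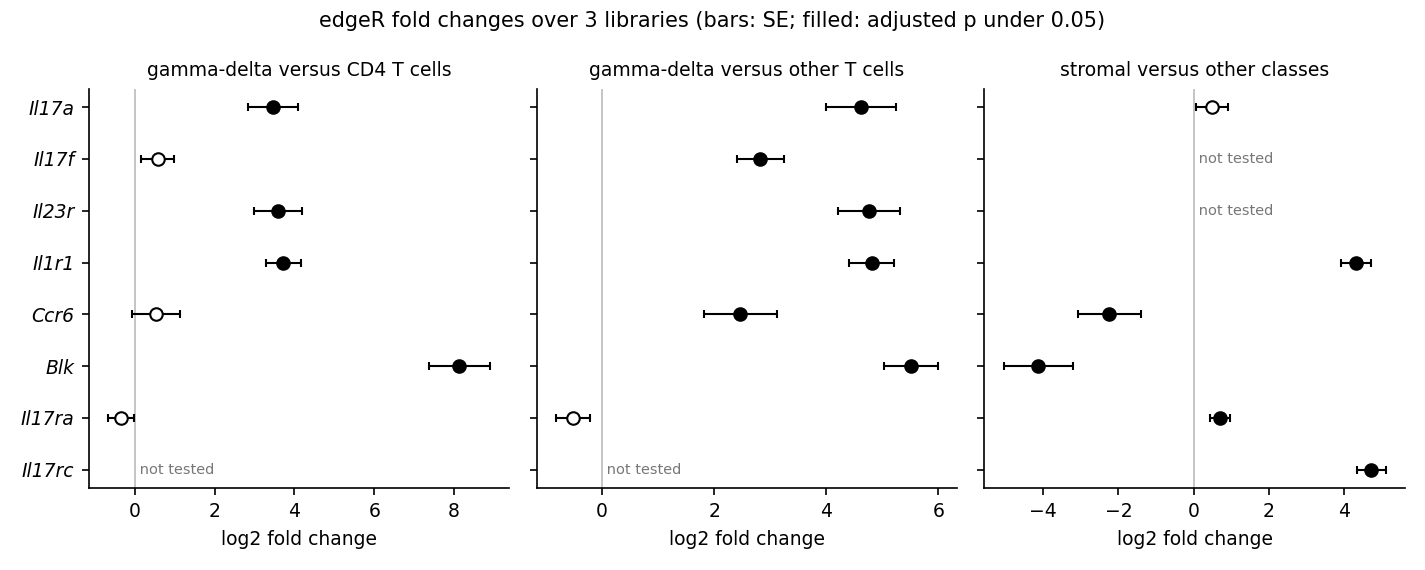
Log2 fold change with its standard error for each gene tested, in gamma-delta against CD4 T cells, gamma-delta against other T cells and stromal cells against the mean of 4 other classes; filled points passed an adjusted p of 0.05. Il23r, Il1r1 and Blk lie between 3.58 and 8.14 in both T cell comparisons, and Il17rc and Il1r1 at 4.73 and 4.32 in the stromal one.

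Regulators of the type 17 fate were split between the comparisons. Against CD4 cells, Sox13 (log2 fold change 8.51, adjusted p = 0.0015) and Zbtb16 (7.46, adjusted p = 1.9e-06), which encodes PLZF of innate-like T cells, were higher in gamma-delta cells, and the AP-1 family gene Batf was lower (-1.79, adjusted p = 0.0054). Against other T cells, Sox13 (6.94), Zbtb16 (4.38), Rora (2.09) and Maf (1.74) were higher. Per library, Maf was at 153, 702 and 277 CPM in gamma-delta cells.

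Surface and effector genes of type 17 gamma-delta cells moved more uniformly. Against CD4 cells 14 of 19 were higher, where 3.08% of all genes tested were. The largest were Kcnk1 (9.71), a potassium channel, Cd163l1 (8.76), Actn2 (4.01) and Tmem176a (3.82). CD4 cells held no UMI of Kcnk1, Sox13, Trdv4 or Gzma in any library, so the fitted values of these genes against CD4 cells are no bound. The cytokine gene Il22 was lower (-3.31, adjusted p = 0.023), and the median of the list was 2.61. Against other T cells 17 of 19 were higher, where 4.44% of all genes tested were, and none was lower. The median was 2.94, beside -0.07 over all genes tested. Of 6 gamma-delta receptor genes that the gate did not use, all passed in both comparisons, with Trdv4, the V region of the invariant gamma-delta subset, at fitted values of 12.18 and 10.69. Other T cells held 1, 0 and 1 UMIs of Trdv4, so the latter is no bound either. Type 1 genes were mixed against CD4 cells, where 3 of 12 were higher (Gzma 7.69, Xcl1 3.86, Il2rb 1.06) and Cd27 lower (-1.18), beside 3.08% of all genes higher. Gamma-delta cells held no Gzma UMI in wild type, and Gzma was far higher in Pdgfra-Cre than in Pdgfrb-Cre. Against other T cells, which include the CD8 cells, none of the 12 was higher and Gzma (-2.66), Eomes (-1.93) and Cd27 (-1.06) were lower. Of all 7540 genes tested, 106 were lower against CD4 cells and 247 against other T cells. Cd27 marks gamma-delta cells that make interferon-gamma rather than interleukin-17. Cytokines that induce the programme were little seen in T cells, with only Tgfb1 of 9 high enough to be tested (log2 fold change 0.09 against CD4 and 0.52 against other T cells; adjusted p = 0.92 and 0.25). Of 19 genes of interleukin-17 receptor signalling, Traf5, an adaptor of the receptor complex, was lower in gamma-delta cells in both comparisons (-2.97 and -2.98); against other T cells Ikbkb was lower too (-0.95) and Cebpb higher (0.999).

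Il17ra was found in many classes and Il17rc mainly in cells of mesenchymal and vascular lineages. In T cells Il17ra was even: gamma-delta cells held 21.9 (2 UMIs), 55.5 and 45.9 CPM, CD4 cells 48.4, 60.5 and 50.7 CPM and other T cells 48.0, 62.2 and 49.4 CPM. Il17rc was nearly absent from them, with 0, 1 and 1 UMIs in gamma-delta, 0, 0 and 1 in CD4 and 0, 1 and 5 in other T cells. Macrophages held Il17ra at 67.6, 71.1 and 119 CPM, B cells at 41.1, 41.6 and 47.1 CPM and NK cells at 41.8, 59.7 and 65.8 CPM. Blood endothelial cells were lower, at 11.4, 3.22 and 4.96 CPM, and so were mural cells, the contractile cells around vessels, at 6.17, 11.5 and 8.97 CPM. The neutrophils, 25, 7 and 17 cells, gave 253, 89.0 and 47.7 CPM from few UMIs, 13 of them in wild type.

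In stromal cells, the Pdgfra- and collagen-marked progenitors of fat, both chains were present in every library. They numbered 250, 621 and 572, with medians of 1668, 9677 and 10537 UMIs, and Pdgfra was seen in 45.2, 88.7 and 73.6% of them. Il17ra was at 36.5 CPM in wild type (32 UMIs, interval 25 to 51.6), 42.2 CPM in Pdgfra-Cre (241 UMIs, 37.1 to 47.9) and 95.9 CPM in Pdgfrb-Cre (589 UMIs, 88.3 to 104). The Pdgfrb-Cre interval lies above the other 2, which overlap. The ratio to wild type was 1.16 for Pdgfra-Cre (0.797 to 1.73) and 2.62 for Pdgfrb-Cre (1.84 to 3.87), and Pdgfrb-Cre was 2.27-fold above Pdgfra-Cre (1.95 to 2.65). A 2-fold difference was not rare: of genes of at least 10 CPM in either library, 9.19% were that much higher in Pdgfrb-Cre than in wild type and 22.9% differed that much either way. Between Pdgfra-Cre and wild type these shares were 12.7 and 24%.

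Il17rc, which pairs with IL-17RA to bind the cytokine, was the steadier chain. Stromal cells held it at 27.4, 29.4 and 33.5 CPM, with ratios to wild type of 1.07 (0.698 to 1.72) and 1.22 (0.8 to 1.95). Il1r1 was as even in these cells, at 124, 128 and 129 CPM. Mural cells held Il17rc at 29.3, 23.1 and 23.3 CPM, the mesothelial cells of Pdgfra-Cre at 32.2 CPM, and blood endothelial cells at 14.3, 12.9 and 13.1 CPM. The sums of all T cells held 0, 2 and 7 Il17rc UMIs (0, 1.12 and 0.57 CPM), those of B cells 1, 0 and 0 and those of macrophages 1, 0 and 1. The zeros of Pdgfra-Cre allow up to 17.8 CPM in its 25 B cells and 6.10 CPM in its macrophages.

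**Figure D5:**
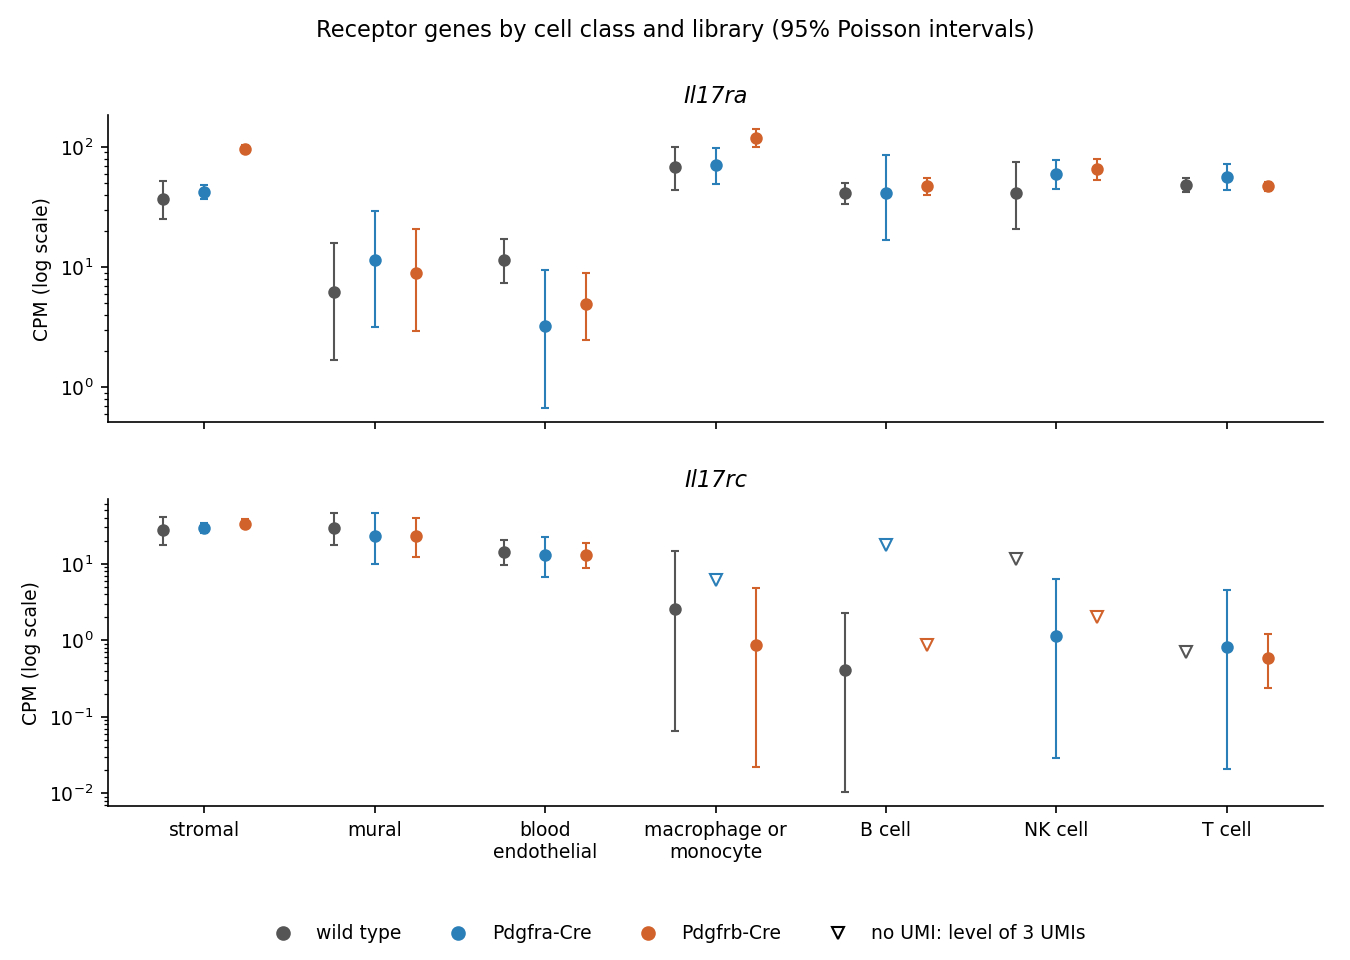
Level (CPM, log axis) of Il17ra and Il17rc by cell class and library with 95% Poisson intervals; an open triangle marks the level of 3 UMIs where none was found. Stromal and mural cells hold Il17rc at 23.1 to 33.5 CPM and blood endothelial cells at 12.9 to 14.3 CPM, and stromal Il17ra is highest in Pdgfrb-Cre at 95.9 CPM.

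The stromal sums joined clusters that the libraries filled unequally. Numbers of cells were 186, 8 and 24 in cluster 1, 34, 22 and 212 in cluster 17, and 30, 0 and 0 in cluster 20. Cluster 26 had 0, 570 and 5 cells, and cluster 29 had 0, 21 and 331. In cluster 17, the only one with over 20 cells in each library, Il17ra was at 34.3 (6 UMIs), 21.1 (4 UMIs) and 88.9 CPM, so the higher Pdgfrb-Cre level was also found within it. Cluster 1, with most wild-type stromal cells, gave 37.9 CPM (23 UMIs) in wild type and 63.7 CPM (11 UMIs) in Pdgfrb-Cre. The intervals of these levels overlapped, so a higher Pdgfrb-Cre level was not resolved in cluster 1. Cluster 29 gave 7.70 CPM (2 UMIs) in Pdgfra-Cre and 101 CPM in Pdgfrb-Cre. Markers of leukocytes in the stromal sums were highest in wild type: the 8 T cell markers summed to 252, 4.38 and 23.9 CPM and the 6 B cell markers to 128, 2.80 and 12.1 CPM. The 8 macrophage markers summed to 42.3, 29.96 and 20.03 CPM, and the 6 red cell markers to 14.8, 2611 and 1.79 CPM. Their part in the receptor levels was not tested. The stromal cells of Pdgfrb-Cre also held 54 Il17a UMIs, of which 52 came from 1 barcode that had 21 UMIs of Cd3 genes.

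Across 5 classes and 3 libraries (15 sums, edgeR as above, 11766 genes), 3 of the 6 genes that could be tested were higher in stromal cells than in the mean of blood endothelial cells, macrophages, T cells and B cells, where 28.9% of all genes were higher. Il17rc (4.73 ± 0.38, adjusted p = 1.3e-07) and Il1r1 (4.32 ± 0.40, adjusted p = 6.8e-07) passed in every alternative. Il17ra passed narrowly (0.70 ± 0.27, adjusted p = 0.047), and its call ended without Pdgfra-Cre (adjusted p = 0.087), without Pdgfrb-Cre (0.19 on the log2 scale, adjusted p = 0.71) and without the library term (adjusted p = 0.070). Ccr6 (-2.24 ± 0.84, adjusted p = 0.040) and Blk (-4.13 ± 0.93, adjusted p = 0.0021), both B cell genes, were lower, 2 of 6 where 18.3% of all genes were lower. The Ccr6 call ended when any 1 library was left out, and the Blk call without wild type or without Pdgfrb-Cre. Il17a did not pass (0.49 ± 0.43, adjusted p = 0.38).

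Downstream parts of the pathway were read in the same stromal sums, where 28.9% of all genes tested were higher in stromal cells and 18.3% lower. The other interleukin-17 family genes that could be tested, 2 of 7, were both higher in stromal cells: the ligand Il17d (7.58) and the receptor-like gene Il17rd (4.12). Of 22 genes of receptor signalling, 2 were higher, the transcription factors Cebpd (5.04) and Cebpb (1.23), and 8 were lower, the largest being Tnfaip3 (-1.64), the inhibitor A20, and Ikbkb (-1.55). Of 12 stromal genes known to respond to interleukin-17 that could be tested, 9 were higher, led by Mmp3 (8.21), Il33 (7.84), Steap4 (6.61) and Ccl2 (5.51), and Tgfb1 was lower (-2.90). The median of this list was 5.07, beside 0.05 over all genes tested. The list was drawn up as genes of stroma, so a higher level there follows in part from that choice. It is no measure of interleukin-17 signalling.

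Between libraries, with no test, the stromal levels of these responsive genes differed widely. The list was chosen with earlier results of these data known, so counts on it are a description and no independent support. Of the 17 on the list, 11 had at least 10 CPM in wild type. In Pdgfrb-Cre 8 of these 11 were 2-fold or more higher and 1 was lower, where 6.32 and 14.6% of all genes of that wild-type level were, and the median log2 ratio was 2.06 beside -0.19 over those genes. In Pdgfra-Cre 6 of the 11 were higher and 4 lower, where 7.39 and 12.5% of all genes were, with a median of 1.04 beside -0.05. The other 6 were under that level in wild type and are not counted, among them Cxcl2, at 0, 71.3 and 668 CPM. The following were chosen after their values were seen. The neutrophil chemokine gene Cxcl1 was at 128, 1789 and 3241 CPM, Il6 at 16, 92.5 and 401 CPM, Ccl2 at 218, 449 and 3575 CPM and Nfkbiz, the signalling gene for IkappaB-zeta, at 45.7, 415 and 510 CPM. Not all had this order: Cxcl5 was at 109, 0 and 17.4 CPM, and Mmp3 was at 139, 5.08 and 347 CPM. These genes respond to many signals, wild-type stromal cells were the shallowest, and the part of either in the differences was not tested.

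Genes that shared the pattern of the programme were ranked by Pearson's r of log2(CPM + 10) over 32 sums of class or T cell subset by library, among 11210 genes. Sums of 1 library share its depth and free RNA, so r is given as a description. Il17f was the closest to Il17a within the programme (r = 0.98), followed by Il23r (0.80), Blk (0.46) and Il1r1 (0.30). The nearest other genes were Actn2 (0.82), Ramp3 (0.79), Kcnmb4 (0.77), Cbarp (0.76) and Aqp3 (0.75). Those nearest to Il17ra were Camk1d (0.86), Cotl1 (0.81), Apbb1ip (0.79), Sema4d (0.78) and Vav1 (0.78). Those nearest to Il17rc were Sgce (0.96), Fkbp9 (0.96), Mpdz (0.96), Sspn (0.96) and Nlgn2 (0.95). The receptor chains themselves went in opposite directions across these sums (r = -0.47), and Il1r1 lay near Il17rc (0.80).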

How the data were processed

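The authors deposited raw UMI counts per gene and barcode for 3 libraries, made with Cell Ranger 3.1.0 and STAR 2.6 on mm10 per the submitters' processing notes; per the labels, libraries were 10x 3′ v3. Kept barcodes had 500 or more genes and no more than 15% mitochondrial UMIs. Scrublet, through scanpy 1.11.5, ranked doublets, and the highest 0.8% per 1000 barcodes were removed. Leiden clusters (resolution 1, 2000 variable genes, 30 components, 15 neighbours, 31 clusters) were made without the 8 genes and without mitochondrial, ribosomal, Y-linked genes and Xist, and named as "like" a class from marker lists. The rule that leaves clusters unnamed, and the use of within-library folds to rank leading genes, were settled after clusters were seen. T cells were cells of clusters named T, NK or ILC2 with a Cd3d, Cd3e or Cd3g UMI and no Ncr1. Members and lists were chosen with earlier results of these data known. Counts of their genes set beside all genes therefore describe these data and are no independent support.

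Counts were summed per library and subset or class and tested with edgeR 4.0.16 (R 4.3.3), with the library as a term and a threshold of 0.05 on the adjusted p. Between genotypes, with 1 library each, no test was made. Intervals are at 95%: Poisson for CPM, conditional binomial for ratios, Clopper-Pearson for shares. For a count of 0 the limit of 3 counts was used. All 8 genes were named. Of lists, up to 4 genes were named, those with the largest change past the threshold. An item of the regulator list is not reported here, so that list is given without its counts. The 5 nearest genes were named by r. Where T cells or stroma of a library hold fewer cells or less RNA per cell, CPM cannot tell these apart. Tests were checked on simulated data. Alternatives were DESeq2 1.42.0, other gates, filters and resolutions, doublets kept, no library term and leaving out each library. Coordinates are from GENCODE M21, in which 99.86% of identifiers were found.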

Additional observations from a re-analysis of the deposited data

Results flagged for a closer look

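Barcodes removed by the cell filters, which no comparison used, also held the ligands in the Pdgfrb-Cre library. Of its 2785 Il17a UMIs over all barcodes, 126 were in barcodes left out, in 8 of 452 of them, with 68 in a single barcode. The barcodes left out of wild type and Pdgfra-Cre held 1 Il17a UMI each, among 1456 and 901 barcodes. Of 692 Il17f UMIs in Pdgfrb-Cre, 34 were in barcodes left out, in 7 of them, and 0 were in those of wild type. These were brought up because the signal lay outside the cells analysed and above the level in the wild-type control.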

How the results depend on the processing

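No paired analysis between genotypes was possible because each genotype was 1 library, so no replicate number is shared between groups beyond the only sample of each. Subsets and classes were paired within libraries through the library term. Of all genes tested, 338 passed in gamma-delta against CD4 cells, 35 without the library term and between 28 (without Pdgfrb-Cre) and 342 (without wild type) when a library was left out. In gamma-delta against other T cells 582 passed, 48 without the library term, 357 with gates on every kept cell, and between 82 (without Pdgfrb-Cre) and 592 (without wild type) when a library was left out, with 271 without Pdgfra-Cre. In stromal cells 5549 passed, and between 3173 (without Pdgfrb-Cre) and 4656 when a library was left out. The cause was not tested, beyond the fewer samples. With a library left out, the log2 Ccr6 difference between gamma-delta and CD4 cells ranged from -0.027 (without wild type) to 1.54 (without Pdgfrb-Cre), and that of Il17a in stromal cells from -1.60 (without Pdgfrb-Cre) to 0.67 (without Pdgfra-Cre). DESeq2 turned the latter to -0.29. The stromal Il17ra ratio of Pdgfrb-Cre to wild type stayed between 2.5 and 3.58, and that of Il17rc between 1.15 and 1.62. The share of gamma-delta cells with Il17a was 6.67 to 18.2% in wild type, 4.55 to 10% in Pdgfra-Cre and 53.8 to 71.8% in Pdgfrb-Cre. With likely doublets kept, Il17a in other T cells of Pdgfrb-Cre was 149 CPM, against 89.4. With 16 and 23 gamma-delta cells, wild type and Pdgfra-Cre cannot show small shares.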

Other observations

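Other genes of the fixed lists also differed 2-fold or more between gamma-delta cells of Pdgfra-Cre and Pdgfrb-Cre. They were read at a minimum of 100 CPM in either library, which a gene can reach through the library where it is high, so no count of them is given. Of the type 17 surface and effector genes, Areg, which encodes the growth factor amphiregulin, was at 0 CPM in wild type and Pdgfra-Cre and 547 CPM in Pdgfrb-Cre. Kcnk1, Serpinb1a, Tmem176a and Tmem176b were lower in Pdgfrb-Cre, with Kcnk1 at 203 CPM in Pdgfra-Cre and 51.7 CPM in Pdgfrb-Cre. Of the regulators, Zbtb16 was higher (92.4 and 214 CPM) and Maf lower (702 and 277 CPM). Of the type 1 genes, Gzmb was at 0 CPM in wild type and Pdgfra-Cre and 191 CPM in Pdgfrb-Cre, Il2rb at 175, 351 and 710 CPM and Gzma at 0, 240 and 1.91 CPM. Of the signalling and responsive genes, Traf4, Tab2, Tnip1 and the chemokine gene Cxcl2 were higher in Pdgfrb-Cre, Cxcl2 at 21.9, 18.5 and 530 CPM.

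The antigen receptor genes of the gated cells differed as well. Trdv4 was at 54.7, 1017 and 432 CPM and the gamma-chain constant gene Tcrg-C4 at 131, 129 and 36.3 CPM. The beta-chain constant genes were higher in Pdgfrb-Cre than in Pdgfra-Cre, with Trbc1 at 962, 259 and 532 CPM and Trbc2 at 1104, 471 and 958 CPM. There was 1 library on each side, and these differences were not tested.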
